A study of Mus musculus with 3 samples.

Results

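The 8 genes described here are known from mast cells and basophils: Ms4a2, Hdc, Cd200r3, Mcpt2, Mcpt8, Cpa3, Fcer1a and Gata2, out of 31053 genes measured. They were chosen by an earlier reading of these data, because they led groups of cells concentrated in 1 leukemia vehicle sample, so their levels by sample and the cells that hold them are given as a description without a test. Single-cell RNA (10x 3′ v3 chemistry), antibody tags for CD11c and Siglec-H and 6 hashtags were read in 1 pooled capture of C57BL/6 mouse spleen cells. The mice were leukemia-bearing or wild type (WT) and were treated over 2 days with vehicle or with panobinostat, a drug that inhibits histone deacetylases. Leukemia gave 2 samples per treatment and WT 1 per treatment; the hashtag names give the vehicle as D5W, read as dextrose in water, and panobinostat as LBH. Each sample was enriched for dendritic cells (DCs) by an Optiprep gradient, removal of GFP-positive cells in a sort, and magnetic depletion of other cell types. The labels name neither the leukemia line, nor the animals' age, nor whether each hashtag stands for 1 animal, so p-values measure the spread between these hashed samples.

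Mast cells and basophils bind IgE through the receptor FcεRI, which is built from an alpha chain that holds IgE (Fcer1a), a beta chain that strengthens the signal (Ms4a2) and a gamma chain that carries it and is shared with other Fc receptors (Fcer1g). Both cell types make histamine with histidine decarboxylase (Hdc) and carry the activating receptor Cd200r3. Among granule proteases, Mcpt8 marks mouse basophils and Mcpt2 mucosal mast cells. Cpa3 is known from mast cells and their precursors but does not by itself tell them from basophils, and it was found in basophil-like cells here, as given below. Gata2 is a transcription factor of blood progenitors, mast cells and basophils, and in red cell precursors it gives way to Gata1 as globin and heme genes come on.

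The genes lie on 7 chromosomes of GRCm38 (GENCODE vM21), and the identifiers of all 8 matched the matrix. Ms4a2 is at chr19:11615523-11623719 (minus strand), Hdc at chr2:126593667-126619299 (minus), Cd200r3 at chr16:44943678-44981380 (plus) and Gata2 at chr6:88193891-88207032 (plus). Fcer1a is at chr1:173221284-173227214 (minus) and Cpa3 at chr3:20215620-20242181 (minus). The protease genes Mcpt2 (chr14:56042041-56044642, plus) and Mcpt8 (chr14:56082166-56085273, minus) are neighbours in the chymase locus of chromosome 14, whose members are similar in sequence, so UMIs of Mcpt1, Mcpt2 and Mcpt4 may have been split among them.

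Because GATA factors bind the letters GATAA, the 250 bases before each RefSeq start (GRCm38.p6) were searched for GATAA and its reverse complement TTATC, without overlap between the patterns. Windows were given for 7 of the 8 genes, with 2 starts for Gata2. Of these 8 windows, those of Ms4a2, Cd200r3, Cpa3 and Fcer1a held the letters, and those of Hdc, Mcpt8 and Gata2 did not; of all 32851 RefSeq windows, 22.6% did, and 4.28% held 2 or more matches. The 4 windows with a match are shown 5′ to 3′ on the gene's strand, with the matches in capitals.
Ms4a2, chr19:11623720-11623969, minus strand: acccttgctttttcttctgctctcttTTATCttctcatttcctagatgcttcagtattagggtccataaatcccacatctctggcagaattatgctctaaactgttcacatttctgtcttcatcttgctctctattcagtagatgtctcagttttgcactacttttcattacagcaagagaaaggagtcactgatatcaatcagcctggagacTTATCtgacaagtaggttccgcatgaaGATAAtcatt
Cd200r3, chr16:44943428-44943677, plus strand: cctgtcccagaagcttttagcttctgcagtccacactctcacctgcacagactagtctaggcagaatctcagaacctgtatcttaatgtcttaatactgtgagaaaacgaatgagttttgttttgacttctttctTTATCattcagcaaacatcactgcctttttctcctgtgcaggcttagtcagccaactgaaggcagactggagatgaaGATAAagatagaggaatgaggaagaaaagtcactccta
Cpa3, chr3:20242182-20242431, minus strand: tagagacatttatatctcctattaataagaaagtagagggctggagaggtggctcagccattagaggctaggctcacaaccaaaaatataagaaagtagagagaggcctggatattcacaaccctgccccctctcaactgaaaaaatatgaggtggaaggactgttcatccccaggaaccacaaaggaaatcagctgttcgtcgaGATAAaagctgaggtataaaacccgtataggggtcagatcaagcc
Fcer1a, chr1:173227230-173227479, minus strand: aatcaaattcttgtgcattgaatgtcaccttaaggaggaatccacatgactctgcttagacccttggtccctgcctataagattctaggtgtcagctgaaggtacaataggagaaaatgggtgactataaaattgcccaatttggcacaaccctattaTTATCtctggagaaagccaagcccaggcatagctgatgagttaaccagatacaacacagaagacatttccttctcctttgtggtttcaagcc
Ms4a2 had 3 matches, beginning 224, 37 and 10 bases before the start, and Cd200r3 had 2, beginning at 115 and 38 bases. Cpa3 had 1 at 45 bases and Fcer1a 1 at 92 bases. A match is a run of letters and not a measured binding site.

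The matrix held 38717 barcodes with 426901103 gene UMIs, all with distinct barcodes, and the 3 submitted libraries (gene expression, hashtag, antibody) share them. After the filters, 18879 cells with exactly 1 hashtag and 162558009 UMIs were kept; 13365 of them fell in DC-like clusters, 2800 in erythroid-like and 34 in basophil-like clusters. Listed with the leukemia samples first (vehicle 1, vehicle 2, panobinostat 1, panobinostat 2) and then WT (vehicle, panobinostat), the samples had 2629, 2734, 2450, 1646, 6264 and 3156 kept cells, with a median of 5226, 13062, 5667, 5940, 5528 and 7582 UMIs per cell. Leukemia vehicle 2 stood apart: 1663 of its cells (60.8%) were erythroid-like, against 0.694 to 19.5% in the other 5 samples.

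Hashtag levels bear on every count by sample. Erythroid-like cells carried few hashtag UMIs: in leukemia vehicle 2 the median of the own tag was 63 in erythroid-like and 402 in DC-like cells. The same tag had a median of 6 to 12.5 in erythroid-like cells called to other samples. Those cells had to be at or below its threshold of 36 UMIs, so their low level is partly set by the call. The own tag made up a median of 40.4% of hashtag UMIs in erythroid-like cells of leukemia vehicle 2, against 81.1% in its DC-like cells. The fitted thresholds were uneven (139, 36, 154, 27, 64 and 48 UMIs in the order above), lower for leukemia vehicle 2 than for leukemia vehicle 1 and leukemia panobinostat 1. The counts of cells with 2 or more of the 8 genes, in all cells and in cells with 5 or more erythroid genes, were repeated with a call by the ratio of tags and, after the data were seen, with 1 threshold of 50 UMIs for all tags.

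Cells with 2 or more of the 8 genes were mainly cells that also held erythroid genes. Pairs of genes with Mcpt8, and pairs of Cpa3 with Fcer1a or Gata2, were exceptions, given below. A cell with a UMI of 2 or more of the 8 genes is called a holder below; 2324 kept cells (12.3%) were holders. Of these, 2247 (96.7%) also had a UMI of 2 or more of 17 erythroid genes (Klf1, Epor, Alas2 and others, no globin), and 2176 (93.6%) had 5 or more. The stricter count was added after seeing the data, because Tspan33 and Car1 of that list had a UMI in 5352 and 2463 of the 16155 cells with under 5 erythroid genes. By cluster, 2220 holders (95.5%) were erythroid-like, 33 basophil-like, 17 blood progenitor-like and 54 in other classes, among them 17 cDC2-like and 15 cDC1-like cells. The clusters were made without the 8 genes and without the erythroid list, but their names were not. The basophil markers used for naming include Mcpt8, Cd200r3, Fcer1a, Ms4a2, Hdc and Gata2, and the erythroid markers include Klf1, Epor and Alas2. High levels of these genes in the classes named from them are therefore partly set by the naming.

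Holders were concentrated in leukemia vehicle 2, which is the observation the genes were chosen on. That sample had 1576 holders (57.6% of its cells, exact 95% binomial interval 55.8 to 59.5%), or 67.8% of all holders. Leukemia vehicle 1, the other sample of the same group, had 30 (1.14%, 0.771 to 1.63%). Leukemia panobinostat 1 and 2 had 21 (0.857%) and 56 (3.4%), WT vehicle 242 (3.86%) and WT panobinostat 399 (12.6%, 11.5 to 13.9%). The vehicle samples of leukemia therefore lay at the extremes of the range or near them, and the spread within that group was larger than any distance between groups. With the ratio call 53.3% of leukemia vehicle 2 cells were holders, and with 1 threshold for all tags 51.4%, against 2.02 to 10.5% and 2.93 to 13.6% in the other samples, with 71 and 142 holders in leukemia vehicle 1.

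**Figure D1:**
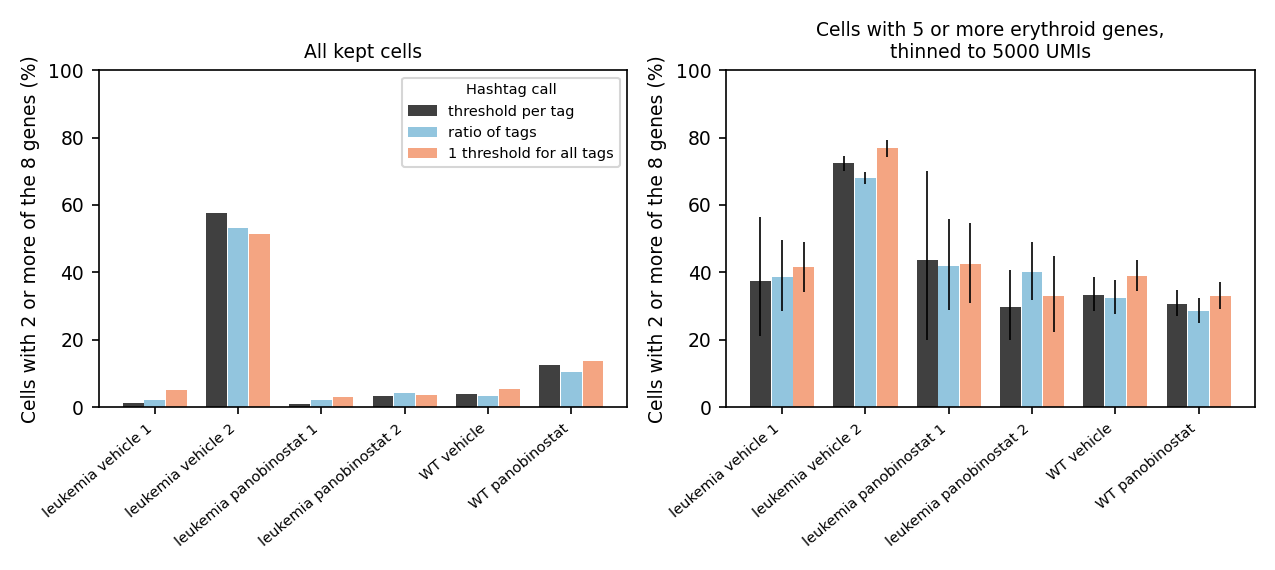
Share of cells with a UMI of 2 or more of the 8 genes (y axis, percent) by hashed sample (x axis) under 3 hashtag calls, for all kept cells (left) and for cells with 5 or more erythroid genes thinned to 5000 UMIs (right, bars with exact 95% binomial intervals). Leukemia vehicle 2 is highest under each call: 57.6, 53.3 and 51.4% on the left and 72.4, 68.1 and 76.8% on the right.

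Ms4a2, the beta chain of the IgE receptor, was measured at 279 CPM (counts scaled to a total of 1e6 UMIs, summed over a sample's cells) in leukemia vehicle 2 and at 6.06, 4.07, 14.5, 18.0 and 32.9 CPM in leukemia vehicle 1, leukemia panobinostat 1, leukemia panobinostat 2, WT vehicle and WT panobinostat. Leukemia vehicle 2 was 1 high sample, and the other 5 formed a range in which the leukemia and WT samples did not overlap. A UMI of Ms4a2 was found in 56.3% of leukemia vehicle 2 cells (30.4% after thinning each cell to 2000 UMIs) and in 2.08 to 11.1% of cells elsewhere (0.748 to 4.45% thinned).

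Hdc, the histamine-forming enzyme, stood at 186 CPM in leukemia vehicle 2 and at 6.23, 6.95, 16.2, 17.9 and 33.5 CPM in leukemia vehicle 1, leukemia panobinostat 1, leukemia panobinostat 2, WT vehicle and WT panobinostat. Its order over samples was close to that of Ms4a2, with leukemia vehicle 2 first and WT panobinostat next. Gata2 read 97.9 CPM in leukemia vehicle 2 and 4.82, 2.66, 8.28, 11.2 and 20.8 CPM in the other 5 in that order. Cd200r3 read 80.2 CPM in leukemia vehicle 2 and 3.51, 3.56, 5.84, 8.67 and 15.2 CPM in the others. For all 4 genes the lowest 2 samples were leukemia vehicle 1 and leukemia panobinostat 1, 1 of each treatment.

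Mcpt2, the mucosal mast cell protease, did not set leukemia vehicle 2 apart: it read 8.15 CPM there, 7.31 in WT panobinostat, and 2.32, 0.283, 2.76 and 1.96 CPM in leukemia vehicle 1, leukemia panobinostat 1, leukemia panobinostat 2 and WT vehicle. Mcpt8, the basophil protease, read 0.295 CPM in leukemia vehicle 2, the lowest, and 0.793, 1.07, 4.34, 1.17 and 1.65 CPM in the other 5. The lowest value came from 11 UMIs in 3 cells, with 9 of the UMIs in 1 erythroid-like cell. By share of cells, leukemia vehicle 2 (0.11%, 0.0226 to 0.32%) was not set apart from the others (0.122 to 0.285%). Of the 55 Mcpt8 UMIs in leukemia panobinostat 2, the highest sample, 49 came from 1 basophil-like cell. Cpa3, the mast cell carboxypeptidase, read 0.68, 3.24, 0.0565, 4.02, 3.96 and 1.25 CPM in the sample order given above. The highest 10 cells held 75.1% of all Cpa3 UMIs, so these levels rest on few cells. Fcer1a, the IgE-binding chain, was the least abundant by UMIs (125 in all), with 1.74 CPM in leukemia vehicle 2 and 0.0565 to 0.766 CPM elsewhere.

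**Figure D2:**
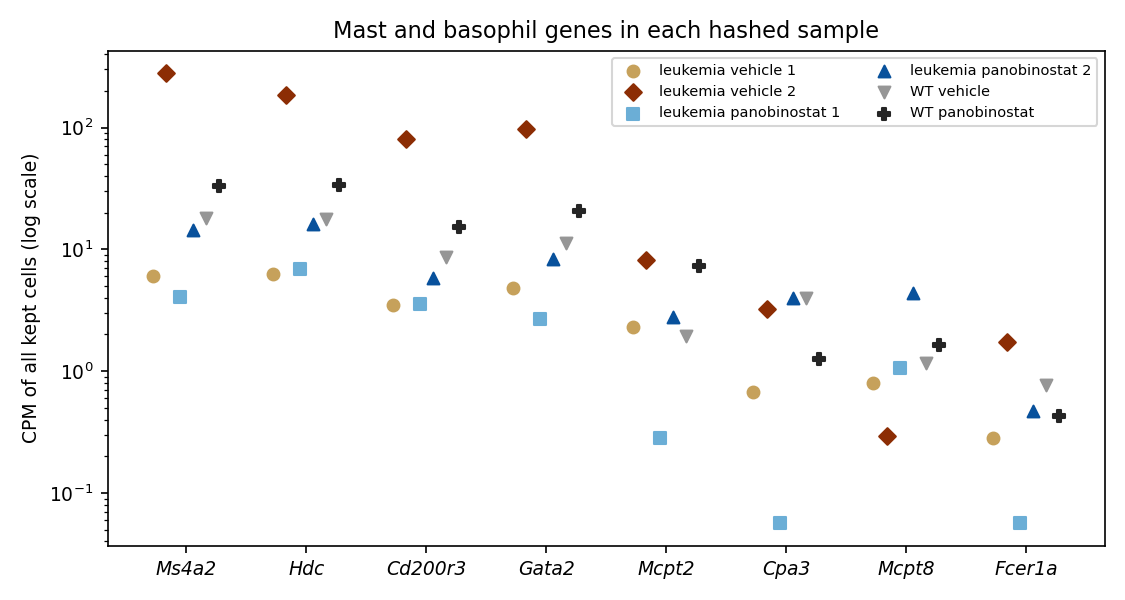
Level of each of the 8 genes (y axis, CPM of all kept cells, log scale) in the 6 hashed samples (1 point per sample). Ms4a2, Hdc, Cd200r3 and Gata2 are highest in leukemia vehicle 2 (279, 186, 80.2 and 97.9 CPM). Mcpt8 is lowest there (0.295 CPM, from 11 UMIs in 3 cells).

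By the cells that held their UMIs, the genes fell into a set found in erythroid-like cells and a set found in basophil-like and other rare cells. Erythroid-like cells held 96.4% of the UMIs of Ms4a2, 91.4% of Hdc, 93.4% of Cd200r3, 92.3% of Gata2 and 94.8% of Mcpt2. In contrast, the 34 basophil-like cells held 76.1% of Mcpt8 UMIs and erythroid-like cells 6.83%. Cpa3 was spread over erythroid-like (50%), blood progenitor-like (32.8%) and basophil-like cells (13.7%). Fcer1a had 60% of its UMIs in erythroid-like and 29.6% in basophil-like cells. Of the 8 genes, Mcpt8 was the only one with its largest share of UMIs in basophil-like cells. For the other 7 that share was in erythroid-like cells. For Cpa3 it rested on few cells: of 201 UMIs in erythroid-like cells, 78 and 75 came from single cells with 1 and 0 of the 17 erythroid genes.

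**Figure D3:**
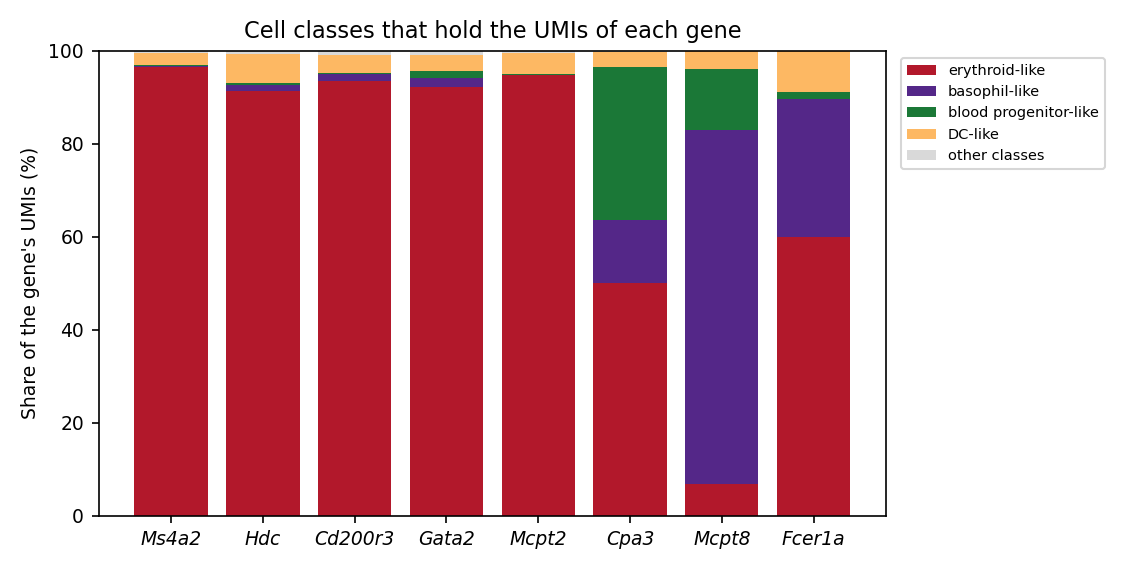
Share of each gene's UMIs (y axis, percent of the gene's UMIs in kept cells) found in erythroid-like, basophil-like, blood progenitor-like, DC-like and other cells. Erythroid-like cells hold 91.4 to 96.4% for Ms4a2, Hdc, Cd200r3, Gata2 and Mcpt2, and 6.83% for Mcpt8.

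Erythroid-like cells comprised a cluster with cell cycle genes (1464 cells, Mki67 620 CPM) and a second cluster (1336 cells, Mki67 159 CPM). They held Klf1, an erythroid transcription factor, in 80.2% of cells and Epor, the erythropoietin receptor, in 52.5%. The median erythroid-like cell held 3 of the 8 genes, and 888 of the 2800 held 4. Ms4a2 was in 71.5% of them, Hdc in 69.3%, Gata2 in 64.2%, Cd200r3 in 57.2%, Mcpt2 in 10.2%, Fcer1a in 2.29%, Cpa3 in 1.25% and Mcpt8 in 0.0714%. As a measure of free RNA in droplets, Ms4a2 had a UMI in 2.35% of DC-like cells, with a median of 4256 to 12502 UMIs per cell over the 4 DC-like classes. The median depth was 15392 UMIs in all erythroid-like cells, 16533 UMIs in those of leukemia vehicle 2 and 9030 to 14830 UMIs in those of the other samples.

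Most pairs of genes were shared in the same way. Ms4a2 and Hdc were found together in 1732 cells, which is 71.8% of the Ms4a2 cells and 67.4% of the Hdc cells, and 97.4% of these were erythroid-like. Ms4a2 and Gata2 were together in 1514 cells, 97.3% of them erythroid-like. Mcpt2 and Mcpt8 shared no cell among 322 and 36 cells with a UMI. Mcpt8 was found with Cpa3 in 22 cells, 15 of them basophil-like, and with Gata2 in 31 cells, 22 of them basophil-like. Cpa3 and Fcer1a were together in 21 cells, 13 of them basophil-like and 6 erythroid-like. Cpa3 and Gata2 were together in 53 cells, 49.1% of them erythroid-like. Mcpt2 was with Cd200r3 in 169 cells, 98.8% of them erythroid-like.

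The chains of the IgE receptor were not held in equal measure. Of the 2002 erythroid-like cells with Ms4a2, 78.5% had neither Fcer1a nor Fcer1g, and 12 of all 2800 erythroid-like cells (0.429%) held all 3 chains. Among the 34 basophil-like cells, 11 (32.4%) held all 3, with Fcer1a and Ms4a2 each in 58.8% and Fcer1g in every cell. Fcer1g read 17.2 CPM in erythroid-like cells, 1285 CPM in basophil-like cells and 550 CPM in DC-like cells, so the erythroid-like level was below that of each of these classes. Fcer1a was at 1.68 CPM in erythroid-like and 190 CPM in basophil-like cells, a ratio of 113 (exact 95% interval 74.3 to 170, counting error only).

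Basophil-like cells numbered 5, 1, 1, 4, 16 and 7 in the 6 samples, so leukemia vehicle 2 held 1 of the 34. Mcpt8 was at 802 CPM in them and 0.313 CPM in erythroid-like cells, Cpa3 at 283 and 4.50 CPM, Gata2 at 488 and 105 CPM, Cd200r3 at 329 and 85.2 CPM, and Hdc at 607 and 190 CPM. Ms4a2 was the exception over pooled cells, with 170 CPM in basophil-like and 273 CPM in erythroid-like cells (ratio 0.621, 0.427 to 0.873). Erythroid-like cells of leukemia vehicle 2 held 82% of all Ms4a2 UMIs. In erythroid-like cells of each other sample, Ms4a2 was below the 170 CPM of basophil-like cells. The pooled ratio therefore reflects the mix of samples and does not compare the classes within a sample. Mcpt2 had no UMI in the basophil-like cells, where 3 counts would be 15.4 CPM, and 15.1 CPM in erythroid-like cells, so a difference was not detectable at this depth. Cyp11a1, a steroid-forming enzyme known from basophils, was in 88.2% of basophil-like cells, while Prss34, another basophil protease, was in 1 of the 34, with 78 UMIs in that cell. The erythroid genes Klf1, Epor and Alas2 had no UMI in them.

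**Figure D4:**
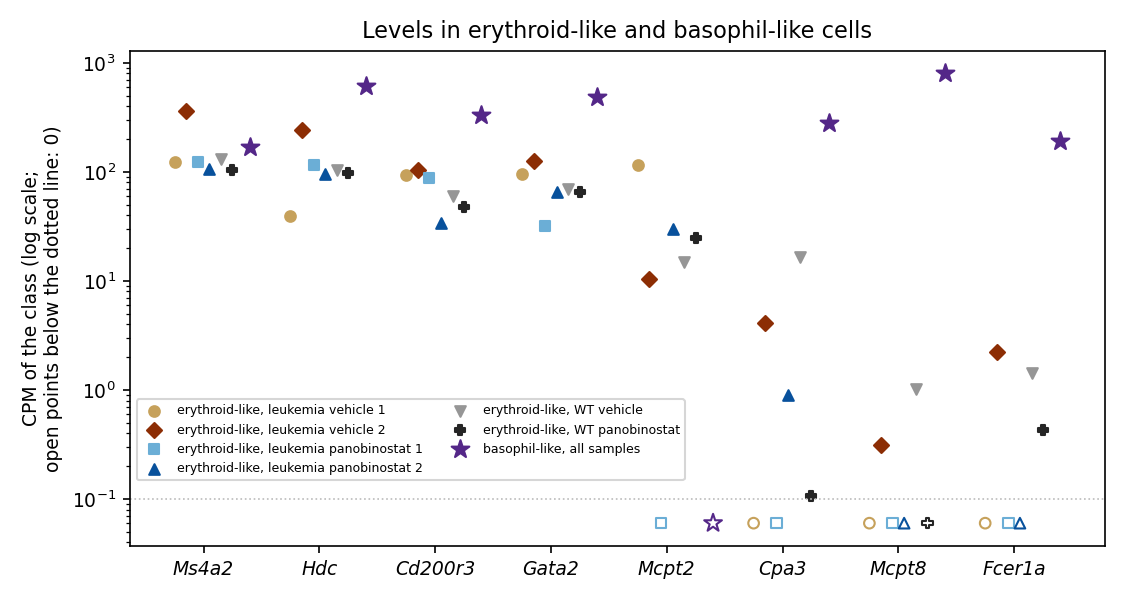
Level of each gene (y axis, CPM of the class, log scale) in erythroid-like cells of each hashed sample (small symbols) and in basophil-like cells of all samples together (stars); open symbols below the dotted line stand for 0 UMIs. Mcpt8, Cpa3 and Fcer1a are at 802, 283 and 190 CPM in basophil-like cells and at most 1.03, 16.6 and 2.23 CPM in erythroid-like cells of any sample.

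Cpa3 was concentrated in a few single cells, whereas the highest 10 cells held 23.3% of Mcpt2 UMIs. A leukemia vehicle 2 cell had 78 Cpa3 UMIs with 17 of the mast cell chymase Cma1, and a WT vehicle cell had 75 Cpa3 UMIs with 86 of Cma1 and 8 of the tryptase Tpsb2. Both were clustered with erythroid-like cells but held 1 and 0 of the 17 erythroid genes. In blood progenitor-like cells the highest Cpa3 counts were 42, 36, 25, 12 and 11 UMIs, and 4 of these 5 cells also held Mcpt8, at 5 to 7 UMIs. The cell with the highest Mcpt2 count (32 UMIs, leukemia vehicle 2) held 8 erythroid genes, 458 Hba-a1 UMIs and 6 Cd200r3 UMIs. Only 2 erythroid-like cells had Mcpt8, with 9 and 5 UMIs; they held 15 and 9 erythroid genes and scored 0.438 and 0.186 on the doublet measure, whose limit was 0.6.

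Erythroid-like cells of leukemia vehicle 2 held more of the genes per cell as well as being more numerous. With every cell thinned to 5000 UMIs, 71.6% of them (69.4 to 73.8%, 1645 cells) held 2 or more of the 8 genes, against 44% (24.4 to 65.1%, 25 cells) in leukemia vehicle 1 and 30.9 to 35.9% in the other 4 samples. Ms4a2 within erythroid-like cells was 361 CPM in leukemia vehicle 2 and 123, 124, 107, 132 and 105 CPM in leukemia vehicle 1, leukemia panobinostat 1, leukemia panobinostat 2, WT vehicle and WT panobinostat. Hdc was 240 CPM there and 39.7, 115, 94.8, 105 and 98.4 CPM in the others, so leukemia vehicle 2 did not overlap with the other 5 samples for either gene. Gata2 read 126 CPM against 32.2 to 96.0 CPM. Cd200r3 was also highest in leukemia vehicle 2, by less, with 104 CPM against 34.3 to 92.7 CPM. Mcpt2 was lower in leukemia vehicle 2 (10.5 CPM) than in 4 of the others (15 to 116 CPM). The 116 CPM of leukemia vehicle 1 rested on few cells, with 20 and 9 UMIs in single cells. When erythroid cells were taken instead as those with 5 or more erythroid genes, the thinned share was 72.4% in leukemia vehicle 2 and 29.6 to 43.8% elsewhere. It was 68.1 against 28.6 to 41.8% with the ratio call and 76.8 against 32.9 to 42.5% with 1 threshold for all tags.

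The same cells of leukemia vehicle 2 held less globin and heme synthesis RNA. Globins made up 2.89% of the UMIs of its erythroid-like cells, against 9.72 to 15.1% in the other 5 samples. Alas2, the erythroid enzyme that starts heme synthesis, was at 26.9 CPM against 95.7 to 205 CPM, and the anion exchanger Slc4a1 at 64.5 against 177 to 358 CPM. Myb, a factor of early progenitors, was at 133 CPM against 65 to 106 CPM, and Car1, an early erythroid carbonic anhydrase, at 1674 against 808 to 1264 CPM. The part of these differences in the higher Ms4a2 and Hdc levels was not tested.

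Within each sample, the genes were then read in erythroid-like cells above and below the sample's median globin share, with CPM computed over non-globin UMIs; this split was added after seeing the data and is a description. Ms4a2 was higher in the globin-poor cells of all 6 samples, by a mean log2(CPM + 1) difference of 1.81 ± 0.93 (SD, n = 6): 226 against 49.5 CPM in leukemia vehicle 1, 416 against 321 in leukemia vehicle 2, and 204 against 68.4 in WT vehicle. Hdc followed, with 1.42 ± 0.83 and all 6 samples in the same direction. Myb (1.49 ± 1.10) and the stem cell factor receptor Kit (0.65 ± 0.39) were also higher in the globin-poor cells of all 6 samples. Mcpt2 went the other way, with -3.19 ± 1.79. It was higher in the globin-rich cells of 5 samples, for example 56.2 against 7.99 CPM in WT panobinostat, and had no UMI in either group of leukemia panobinostat 1. In leukemia vehicle 1 it read 280 against 7.28 CPM, from 34 against 1 UMIs, with 20 and 9 UMIs in single cells. Alas2 (-4.57 ± 1.85) was higher in the globin-rich cells of all 6. Cd200r3 (0.11 ± 0.50) and Gata2 (0.00 ± 0.59) differed by less than the spread between samples. So the erythroid-like cells that held Mcpt2 were on the globin-rich side and those with most Ms4a2 and Hdc on the globin-poor side.

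**Figure D5:**
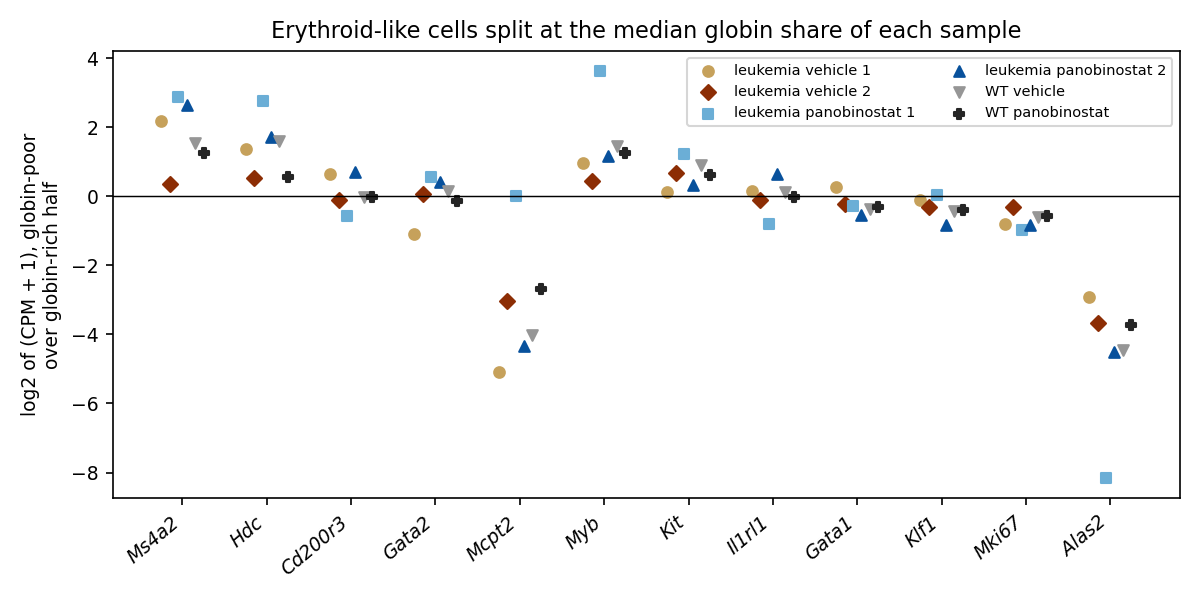
Difference of log2(CPM + 1), over non-globin UMIs, between globin-poor and globin-rich erythroid-like cells (y axis) for 12 genes (x axis), with 1 point per hashed sample. Ms4a2, Hdc, Myb and Kit are above 0 in all 6 samples; Mcpt2 is below 0 in 5 samples and at 0 in leukemia panobinostat 1, where it had no UMI.

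Some other classes held single members. Blood progenitor-like cells had Cpa3 at 93.1 CPM, Gata2 at 55 CPM and Mcpt8 at 19 CPM, though Cpa3 was in 4.49% of these 178 cells. Gata2 was at 62.8 CPM in endothelial-like cells, in 18.9% of 95 cells. In DC-like cells, Ms4a2 UMIs stood at 15.7 to 19.9 per 1000 Hba-a1 UMIs in pDC-like, cDC1-like, cDC2-like and mature DC-like cells, near the 19.5 of erythroid-like cells. Hdc differed: it had 60.5 UMIs per 1000 Hba-a1 UMIs in cDC2-like and 31.5 in cDC1-like cells, against 11.2 in pDC-like, 14.4 in mature DC-like and 13.5 in erythroid-like cells. Its level in cDC2-like cells was 13.1 CPM (11.7 to 14.7), with 8.94 to 14.5 CPM over the 6 samples, against 3.82 CPM in cDC1-like and 2.36 CPM in pDC-like cells. The sample ranges of cDC2-like (8.94 to 14.5 CPM) and cDC1-like cells (2.39 to 5.06 CPM) did not overlap.

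Antibody tags were not used to choose the genes. CD11c, an integrin of DCs, read lower in the holders of most samples than in DC-like cells. Median CD11c counts in holders were 448, 172, 1788, 202, 484 and 200 in the 6 samples, and in DC-like cells 721, 1608, 1464, 1671, 1680 and 2089. Holders were lower in 5 samples and higher in leukemia panobinostat 1, where 10 of the 21 holders had under 2 erythroid genes. The mean log2 ratio was -1.98 ± 1.52 (SD, n = 6; exact two-sided sign-flip permutation test p = 0.062, adjusted over 4 tests 0.25), so the difference did not pass the threshold. Siglec-H, a lectin of plasmacytoid DCs, differed by -0.07 ± 0.13 (n = 6; exact permutation p = 0.16, adjusted 0.31). The holders with under 2 erythroid genes (10, 32 and 14 cells in leukemia panobinostat 1, WT vehicle and WT panobinostat) were also set against cells with 2 or more erythroid genes and under 2 of the 8 genes. These reference cells were not mainly erythroid-like by this tag: their median CD11c counts were 1794, 1714 and 1298, against 184 in erythroid-like cells. CD11c differed by -0.48 ± 0.96 (exact permutation p = 0.75, adjusted 1) and Siglec-H by -0.01 ± 0.15 (exact permutation p = 1). With 3 samples this exact test cannot go below p = 0.25.

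Genes outside the 8 were then compared between holders and all other kept cells of the same sample, to ask what else such cells express. The other cells were mainly DC-like, and the erythroid genes are part of how the set was described, so nothing is read from their count. With edgeR's quasi-likelihood test on counts summed per sample, and the hashed sample as a block, 3598 of 12669 genes (28.4%) were higher in holders and 4635 (36.6%) were lower at an adjusted p under 0.05. Without normalization beyond library size the split turned, with 4567 higher and 3853 lower, and the median log2 fold of all genes moved from -0.11 to 0.09. Higher genes with the largest folds and the same sign in all 6 samples were Cyp11a1, Gm48614, Rab44, Fgf3, 1700042O10Rik, Csrp3, Slc22a3, Chrm1, Slc30a2 and Pdzd2. Cyp11a1 averaged 15.9 CPM in holders and 0.0726 CPM in other cells, a log2 fold of 6.64 (SE 1.09, adjusted p = 0.0007, higher in 6 of 6 samples), and ranged from 0.289 CPM in leukemia vehicle 2 to 64 CPM in leukemia vehicle 1; in erythroid-like cells all its 6 UMIs were in 1 cell. Slc22a3, an organic cation transporter that carries histamine, averaged 24.5 against 0.978 CPM (log2 fold 4.47, SE 0.27, adjusted p = 1.0e-05, 6 of 6 samples). The lower genes with the largest folds were Myo10, Gal, Gm14964, Olfr164, Cacna2d4, Cdh17, Gm16033, Gm12159, Fbn1 and Slc22a12, at 0 to 0.00603 CPM in holders and 0.678 to 7.72 CPM in other cells, so their fitted folds are no bound.

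Of 15 other mast cell genes that could be tested, 9 were higher in holders, 3 were lower and 3 did not pass the test; the median log2 fold was 2.83, against -0.11 over all genes. Il1rl1, the receptor of interleukin 33, was at 123 CPM in holders and 6.97 CPM in other cells (log2 fold 4.06, SE 0.26, adjusted p = 1.2e-05, 6 of 6 samples), and it stood at 156 CPM in erythroid-like against 30.8 CPM in basophil-like cells. The proteases Mcpt1 (11.2 against 0.627 CPM, 6 of 6 samples) and Cma1 (8.11 against 0.115 CPM, 5 of 6) and Tph1, the enzyme that starts serotonin synthesis (1.73 against 0.0166 CPM, 4 of 6), were also higher. Cma1 rested mostly on WT vehicle, with 36.7 CPM in its holders against 0 to 4.99 CPM in those of the other samples. Kit, which mast cells need, was lower (35.7 against 48.5 CPM, log2 fold -0.75, SE 0.17, adjusted p = 0.0037, lower in 4 of 6 samples), as were Hpgds and Hs3st1. By class, Kit stood at 110 CPM in cDC2-like, 53.5 in cDC1-like, 34.9 in mature DC-like and 6.81 CPM in pDC-like cells. It was at 28.9 and 29.8 CPM in the erythroid-like clusters and 30.8 CPM in basophil-like cells. Srgn, the granule proteoglycan, Gzmb and Mitf did not pass the test.

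Of 22 other basophil genes, 6 were higher, 5 lower and 11 did not pass the test (median log2 fold 0.11). Over all genes 28.4% were higher and 36.6% lower, so the list held no excess of higher genes. Interleukin 4 (Il4), a basophil cytokine, was higher in all 6 samples, 36.1 against 2.17 CPM (log2 fold 3.87, SE 0.22, adjusted p = 8.3e-06), and had a UMI in 44.7% of erythroid-like and 38.2% of basophil-like cells. Gata1, Alox5, which starts leukotriene synthesis, Osm, Grm6 and Cyp11a1 were the other higher ones, and Il3ra, the interleukin 3 receptor chain, was lower (7.51 against 16.9 CPM). Gata1 had 1 UMI in basophil-like cells (5.14 CPM) and stood at 94.6 and 79.7 CPM in the erythroid-like clusters. Of 18 genes that carry the FcεRI signal, 3 were higher, 11 lower and 4 did not pass the test (median -1.20). The higher ones were Lat, an adaptor (18.3 against 2.70 CPM), Grap2 and Rabgef1. Fcer1g (138 against 562 CPM) and the kinases Syk (15.7 against 68.5 CPM) and Lyn (73.9 against 144 CPM) were lower in holders of all 6 samples.

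Of 24 GATA factors and partners other than Gata2, 14 were higher and 6 lower (median log2 fold 1.37). Gata1 was at 74.1 against 7.48 CPM, Tal1 at 69.5 against 6.88 CPM and Gfi1b at 106 against 8 CPM, all 3 known for red cell and megakaryocyte development. Gata3, better known from T cells, was at 21.2 against 1.30 CPM (log2 fold 3.8, SE 0.22, adjusted p = 1.0e-05, 6 of 6 samples) and had no UMI in basophil-like cells. Spi1 (117 against 331 CPM), Irf8 (187 against 1114 CPM), Cebpa, Cebpb, Klf2 and Ikzf1 were lower. All 24 cell cycle genes were higher (median 1.32), and all 20 DC genes lower (median -3.25). Against the 28.4% higher and 36.6% lower over all genes, 7 of 22 progenitor genes were higher and 5 lower, 3 and 6 of 13 megakaryocyte genes, 1 and 4 of 8 neutrophil genes, and 1 and 3 of 4 eosinophil genes. Of 5 other genes of the chymase locus 3 were higher (Cma1, Mcpt1 and Mcpt4, which are also on the mast cell list) and 0 lower, and of 11 histone deacetylases, the targets of panobinostat, 4 were higher and 2 lower; the progenitor and histone deacetylase shares of higher genes are near that background. The erythroid list (16 of 17 higher), globins (6 of 6) and heme and iron genes (15 of 16, with Ftl1 lower) follow from the cells chosen. The same limit holds for the DC and cell cycle genes and for Gata1, Tal1 and Gfi1b. They set mainly erythroid-like holders against mainly DC-like cells, so nothing about the 8 genes is read from them.

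Holders with erythroid genes were next compared with holders that had under 2 erythroid genes, in the 3 samples with 10 or more of each (leukemia panobinostat 1, WT vehicle and WT panobinostat), so leukemia vehicle 2 is not in this comparison. With edgeR, 431 of 2795 genes (15.4%) were higher in the cells with erythroid genes and 575 (20.6%) lower. Without normalization beyond library size 624 were higher and 499 lower. The second group was small, with 10, 32 and 14 cells and 113422 to 203863 UMIs: the 1006 calls became 69 without WT vehicle, 664 without WT panobinostat and 2339 without leukemia panobinostat 1. Of 12 basophil genes tested, 9 were lower and 1 was higher (median log2 fold -5.26, against 0.06 over all genes). Of 14 DC genes tested, 11 were lower and 0 higher (median log2 fold -3.00). The samples had 1, 16 and 7 basophil-like cells in all, fewer than the 10, 32 and 14 cells of the second group, which therefore also held other cells. Among the 10 genes with the largest falls were the chemokine genes Ccl3, Ccl4, Ccl6 and Ccl9, with Cyp11a1, Osm, Csf1, Lilr4b, Emilin2 and Cyp4f18. Ccl4 was at 353, 3512 and 2093 CPM in cells without erythroid genes and at 12.8, 20.7 and 19.8 CPM in those with them (log2 fold -7.15, SE 0.39, adjusted p = 6.3e-05), a gap seen in 3 of 3 samples. Osm, a cytokine gene, read 8.82, 280 and 277 CPM against 0, 6.90 and 5.03 CPM.

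The higher genes with the largest folds were Gfi1b, Gp5, Fam213a, Actr3b, Gm15915, Tspo2, 1700042O10Rik, Atp2b4, Padi3 and Dnaja4, with a mean of 65 to 162 CPM and no UMI in the other group, so no fold is given. The groups were split on erythroid genes, so higher levels of genes found in erythroid-like cells follow from the split. Gfi1b, for example, was at 94.7 and 139 CPM in the erythroid-like clusters and 5.14 CPM in basophil-like cells. Il1rl1 was higher beside erythroid genes (127 against 20.3 CPM, log2 fold 2.24, SE 0.56, adjusted p = 0.017, 3 of 3 samples), and Fcer1g was lower (63.6 against 608 CPM, log2 fold -3.95, SE 0.63, adjusted p = 0.0035, 3 of 3 samples). Of the 8 genes, which chose these cells, Mcpt2 was under the filter on low counts here and the other 7 were above it (all 8 were in the comparison with other cells). Mcpt8 was at 1.42 against 241 CPM, Cpa3 at 1.63 against 343 CPM and Gata2 at 85.1 against 190 CPM.

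Panobinostat was compared with vehicle within holders, with leukemia or WT as a covariate. By edgeR no gene of 9163 passed in either direction (0% higher, 0% lower; 35 had an unadjusted p under 0.05, and DESeq2 called 1); without leukemia vehicle 2 edgeR called 1. Over all kept cells none of 13258 passed (0% in either direction; 114 at an unadjusted p under 0.05, DESeq2 0). The common biological coefficient of variation was 37.6% within holders and 46.5% over all cells. Within holders, Ms4a2 averaged 162 CPM with panobinostat and 248 CPM with vehicle, Hdc 151 and 179 CPM, and Gata2 88.5 and 140 CPM, given as a description. Over all cells Ms4a2 averaged 17.2 and 101 CPM, a difference made by leukemia vehicle 2: the remaining vehicle samples, at 6.06 and 18.0 CPM, lay inside the 4.07 to 32.9 CPM of the panobinostat samples.

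Over the 26 clusters, the genes whose log2(CPM + 1) followed each member most closely were found by Pearson's r, as a description; all points come from 1 capture and share its free RNA. Ms4a2 was most like Gna14 (0.955), Gata2 (0.935) and Aqp9 (0.922), and Gata2 like Ms4a2, Aqp9 (0.914) and Fam174b (0.898). Hdc was most like Gm973 (0.914), Cd200r3 (0.912) and Il4 (0.905), and Cd200r3 like Ldhc (0.925), Gm973 (0.916) and Myo1d (0.912). Mcpt2 was most like Far2 (0.92), Gm48614 (0.91) and Tph1 (0.906). Mcpt8 went with Hgf (0.943), Cyp11a1 (0.943) and Sytl3 (0.942), Cpa3 with Mcpt8 (0.929) and Klc3 (0.897), and Fcer1a with Gm12195 (0.975), Dnase2b (0.956) and Cyp11a1 (0.947). Mcpt2 and Mcpt8, which shared no cell, had an r of -0.0119.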

How the data were processed

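The authors deposited 1 matrix of unnormalized UMI counts for genes, antibody tags and hashtags, made with Cell Ranger 3.1.0 and Seurat 3.1.0 on mm10/GRCm38, per the submitters' processing notes; roles and order of the tools are not given in the sources used here. A hashtag was called above the 99% point of a negative binomial fit to its background, and cells with exactly 1 tag were kept; cells had 500 or more genes, at most 10% mitochondrial UMIs and a doublet neighbour score under 0.6 (it marked 10.4% of single-tag and 48.1% of several-tag barcodes). Leiden clusters (scanpy 1.11.5, leidenalg 0.10.2, 2000 variable genes, 30 components, 15 neighbours, resolution 1) were made without any listed gene and named "-like" from 3 or more raised markers. CPM were computed here. Counts per sample were tested with edgeR 4.0.16 (TMM, filterByExpr, quasi-likelihood, Benjamini-Hochberg adjustment) and, as an alternative, DESeq2 1.42.0, in R 4.3.3, with pairs taken within a hashed sample. On simulated data for holders against other cells, 176 of 200 changed genes were recovered, with 3 false calls among 12422 genes tested. The simulated counts had less spread than the real comparison, whose common biological coefficient of variation was 22.4%. Recovery at the real spread was not tested. Intervals are exact 95% ones and cover counting error only. Named genes are the 8 members, listed genes by count, the 10 largest changes per direction with the same sign in every sample and 50 or more UMIs, and the 3 most alike genes per member. Members, lists, definitions and doublet limit were chosen with earlier results of these data known. Results for a few genes that these rules name are not reported here.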

Additional observations from a re-analysis of the deposited data

Results flagged for a closer look

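Barcodes outside every comparison by sample also held the genes. Among 2149 barcodes that passed the filters on genes, mitochondrial UMIs and doublets but carried no hashtag, 890 (41.4%, 39.3 to 43.5%) held 2 or more of the 8 genes, against 12.3% of those with 1 tag and 14.3% of those with several. They were noticed because they are a signal outside the samples compared. By the ratio of tags, 388 of the 890 went to leukemia vehicle 2, 58 to WT panobinostat, 26 each to leukemia vehicle 1 and leukemia panobinostat 1, and 391 to no sample. Of the untagged barcodes 71.4% had 5 or more erythroid genes. Thinned to 5000 UMIs, 34.3% of 1388 untagged erythroid cells held 2 or more of the 8 genes, a share near that of the samples other than leukemia vehicle 2.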

How the results depend on the processing

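The number of holders, 2324, stayed within 1.5 times under 6 of 7 alternatives and was 815 after thinning to 2000 UMIs. Leukemia vehicle 2 held the largest share of them under every alternative tried: 67.8% as reported, 72.0% with the ratio call, 74.0% with 3 or more members, 76.4% with 2 or more UMIs per member, 78.3% thinned, 57.4% without the doublet filter and 52.1% with 1 threshold for all tags (added after seeing the data). The calls between holders and other cells, 8233 genes, stayed within 1.5 times under all 13 alternatives, the fit with no replicate block included (8235). The comparison of holders with and without erythroid genes was less stable: 1006 calls became 2116 without a filter on low counts, 3549 with the ratio call, 1976 with 1 threshold for all tags and 1649 with 5 or more erythroid genes, and 69 to 2339 on leaving out 1 sample; 4 alternatives, among them no replicate block (1107 calls), kept it within 1.5 times. For panobinostat within holders, 0 calls became 1 with DESeq2, 1 without a filter and 0 to 1 on leaving out 1 sample; over all cells 11 alternatives gave 0. No tag test passed the threshold after adjustment under any alternative, though against DC-like cells CD11c had an exact permutation p of 0.031 with the ratio call and as a share of tag UMIs. As a share of tag UMIs, Siglec-H turned to 1.32 against DC-like cells (exact permutation p = 0.031, adjusted 0.062) and to 0.41 against cells with 2 or more erythroid genes. On leaving out 1 sample, CD11c against cells with 2 or more erythroid genes ran from -0.87 to 0.05 and Siglec-H from -0.09 to 0.04. At Leiden resolution 2, 14 of the 24 named alike genes stayed among the 3 most alike. The causes of these changes were not tested. Depth limits Fcer1a and Mcpt8, with 125 and 205 UMIs in all.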
